A study of Mus musculus with 6 samples.

Results

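The cytosolic ribosomal proteins are the protein part of the ribosome that translates nuclear-encoded mRNA. Each is encoded by its own gene, named Rpl for the large and Rps for the small subunit. The ribosomal protein genes described here were picked by symbol: Rpl or Rps followed by a number, together with Rplp0, Rplp1, Rplp2 and Rpsa, leaving out the S6 kinases, Rps19bp1 and symbols that mark a pseudogene with -ps. Earlier results of these data were known when this rule and the lists of related genes below were chosen. The rule found 92 genes among 56941 in the count table, 55 named for the large and 37 for the small subunit. In the GENCODE annotation 85 of them are protein-coding and 7 are annotated as pseudogenes, such as Rps4l, Rps3a2 and Rpl6l. The filter on low counts was passed by 88, and the tests below cover these.

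RNA had been sequenced from cells isolated from mouse lungs with magnetic beads as primary endothelial cells and kept in endothelial medium with serum. The sample titles call the cells PAECs. The groups were cells with a floxed Fundc1 gene (FL, genotype FUNDC1-FLOX, 3 libraries) and cells labelled as an endothelial knockout of it (EC-KO, genotype FUNDC1-KO, 3 libraries). Fundc1 encodes an outer-membrane receptor for mitophagy, and the study's title places it in pulmonary hypertension. The labels used here do not name the Cre driver, the strain, the age or whether each library came from its own animal, and p-values therefore describe the spread among libraries, which may be technical.

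A ribosome needs 1 copy of nearly every ribosomal protein, and cells tune the supply of these proteins as a block. The messages are short, abundant and mostly of the TOP class, which begins with a C and a run of pyrimidines (C or T) and whose translation is controlled by mTORC1 through LARP1. Transcription of the genes, of ribosomal RNA and of the factors that assemble ribosomes is raised by MYC in growing cells.

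The region around the annotated transcription start shows this pyrimidine element in some members, and it is printed for the genes that the results below turn on. Rps6 carries the element at its start, Rps12 and Rpl37a are the members that passed the test, and Rps27 with Rps27l and Rpl22 with Rpl22l1 are pairs of related genes that are compared further down. Each sequence holds 40 bases before and 20 bases after the start that RefSeq gives (GRCm38.p6, the first entry of each gene), with every C followed by at least 4 C or T letters in capitals.
Rps6, chr4:86857348-86857407, minus strand: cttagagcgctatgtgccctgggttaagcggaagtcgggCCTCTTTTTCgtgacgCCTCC
Rps12, chr10:23787190-23787249, minus strand: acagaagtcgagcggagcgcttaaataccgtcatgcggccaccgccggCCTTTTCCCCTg
Rpl37a, chr1:72711220-72711279, plus strand: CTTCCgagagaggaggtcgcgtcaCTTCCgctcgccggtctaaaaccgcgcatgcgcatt
Rps27, chr3:90213629-90213688, minus strand: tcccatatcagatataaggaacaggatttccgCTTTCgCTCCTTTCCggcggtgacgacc
Rps27l, chr9:66946046-66946105, plus strand: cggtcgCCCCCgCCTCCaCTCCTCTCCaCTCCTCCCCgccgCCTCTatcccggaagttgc
Rpl22, chr4:152325686-152325745, plus strand: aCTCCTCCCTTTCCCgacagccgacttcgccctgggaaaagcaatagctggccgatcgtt
Rpl22l1, chr3:28805468-28805527, plus strand: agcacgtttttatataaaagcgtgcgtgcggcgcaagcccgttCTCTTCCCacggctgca
RefSeq promoters were at hand for 67 of the 92 members. A C followed by at least 4 pyrimidines stood exactly at the annotated start, on the sense strand, in 15 of the 67 (22.4%), in 3.01% of the 27025 genes of the whole promoter table and in 3.05% of the 12455 of these that passed the filter on low counts here. Within 20 bases on either side of the start it was found in 54 of 67 (80.6%), against 52.6% of the whole table and 54.5% of the genes tested. The other motifs were searched over the 300 bases of each entry and on both strands. The ETS site CCGGAAGT was present in 12 members (17.9%), in 4.31% of the whole table and in 7.76% of the genes tested. The YY1 core AAGATGGC was present in 6 members (8.96%), in 3.19% of the whole table and in 4.55% of the genes tested. The TATA box TATAAA was present in 8 members (11.9%), below the 15.7% of the whole table and above the 10.1% of the genes tested. These are matches of letters near annotated starts, and annotated starts may lie some bases from the ones used.

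The libraries held 26658998 to 34306962 gene counts. The targeted gene Fundc1 was at 25.1, 31.96 and 30.7 CPM (the gene's count scaled to a common library size with TMM factors) in the floxed libraries and at 14.1, 18.2 and 12.8 CPM in the knockouts (log2 fold change -0.96 ± 0.19 SE, edgeR adjusted p = 0.00796). The groups also differed in markers of cell types. Of 18 pan-endothelial markers 10 fell and 0 rose, with a summed level of 10797 to 15105 CPM in FL and 4183 to 8396 CPM in EC-KO. FL 1 had the lowest endothelial sum of its group (10797 CPM) and the highest epithelial sum (4459 CPM, against 1873 and 2415), and EC-KO 2 had the highest endothelial sum of its group (8396 CPM, against 4183 and 4325). EC-KO 2 also had the highest epithelial sum of its group (17205 CPM, against 11763 and 11512) and the highest fibroblast sum (2464 CPM, against 1473 and 957). Epithelial markers rose in 13 of 14 cases (1873 to 4459 CPM in FL, 11512 to 17205 in EC-KO), and fibroblast markers rose in 8 of 12 and fell in 1. Of 12 markers of macrophages and monocytes 10 fell (6061 to 7996 CPM in FL, 3203 to 3653 in EC-KO), 7 of 9 markers of smooth muscle and pericytes fell, erythroid markers rose in 4 of 6, and 1 of 10 lymphocyte markers rose and 1 fell. Every listed marker passed the filter on low counts, which a gene can pass through the libraries of either group alone. In such isolates fewer cells of a type and less RNA per cell cannot be told apart, and the part of these cell types in the values below was not tested.

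Most ribosomal protein genes had a small positive difference in the knockout libraries, and few of them passed the test. Of the 88 tested members 84 had a log2 fold change above 0, with a median of 0.37, which is a level 1.29 times that in FL, and the middle of the distribution ran from 0.28 (lower quartile) to 0.47 (upper quartile). The median over all 18562 tested genes was 0.03, and 51.8% of those lay above 0. Only Rps12 and Rpl37a rose at an adjusted p under 0.05 in edgeR's quasi-likelihood test, and 0 fell. Among all tested genes 13.5% rose and 13.5% fell by that rule (27.1% together), so the share of members called, 2 of 88, was below the background. At an unadjusted p under 0.05 there were 22 members higher and 1 lower, where 20.7% of all genes were higher. The 3 libraries of each group did not overlap in 36 members that were higher in EC-KO and in 1 that was lower, against 22.6% and 22.8% of all genes. Standard errors of the members had a median of 0.19 on the log2 scale, compared with 0.26 over all genes.

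**Figure D1:**
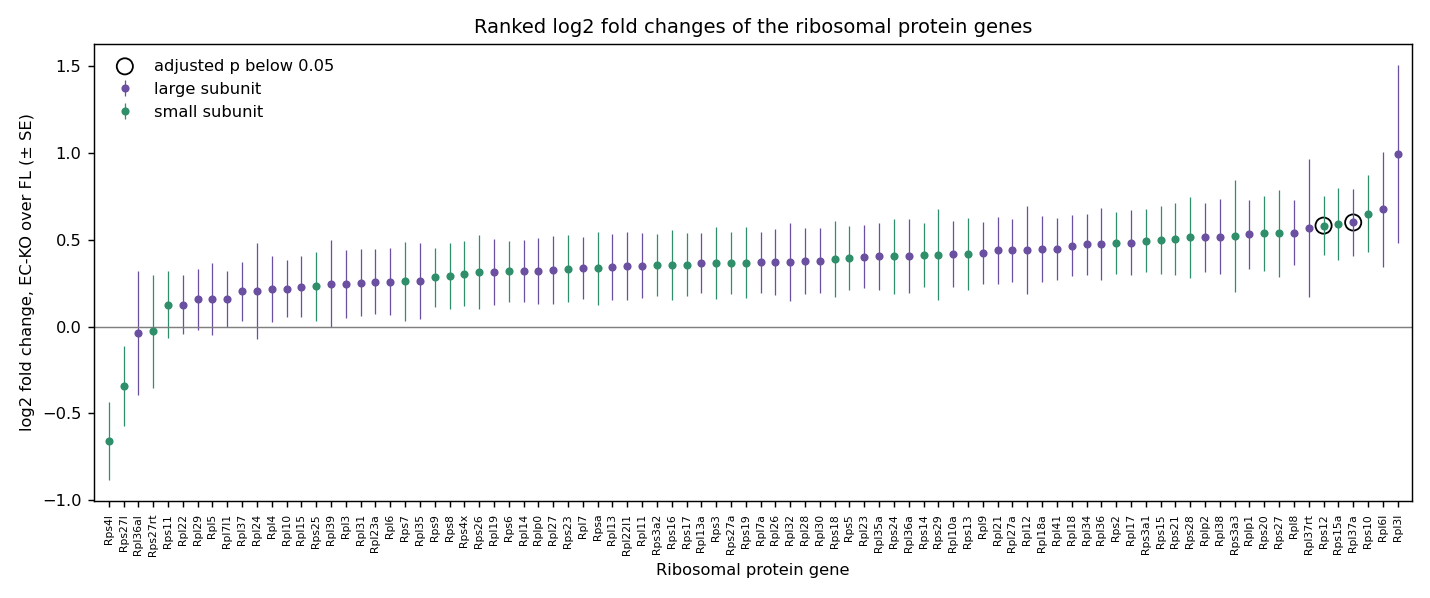
Log2 fold change of EC-KO over FL (vertical axis, with its standard error) for the 88 tested ribosomal protein genes in order of size, coloured by subunit. The points form a shallow slope around the median of 0.37, with Rps12 and Rpl37a ringed as the called genes and Rps4l and Rps27l at the low end.

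The shift was shared by the genes and differed between the libraries. Relative to each gene's mean in FL, the median member was at 0.18, -0.07 and -0.10 in FL 1, 2 and 3 on the log2(CPM + 0.5) scale. In EC-KO 1, 2 and 3 it was at 0.65, 0.20 and 0.22. EC-KO 1 thus stood above the other 5 libraries, and FL 1 was close to EC-KO 2 and EC-KO 3. EC-KO 1 was the highest of the 6 libraries in 80 of 88 members, and FL 1 was the highest of the FL libraries in 78. EC-KO 2 exceeded FL 1 in 50 of 88. Within a library the members moved closely together: their deviations had an SD over genes of 0.07 to 0.12 in the FL libraries and 0.19 to 0.26 in the EC-KO libraries, where the SD over all tested genes was 0.24 to 0.28 and 0.80 to 0.83. The members are abundant, with a median FL level of 199 CPM, and other genes of like level were not compared.

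**Figure D2:**
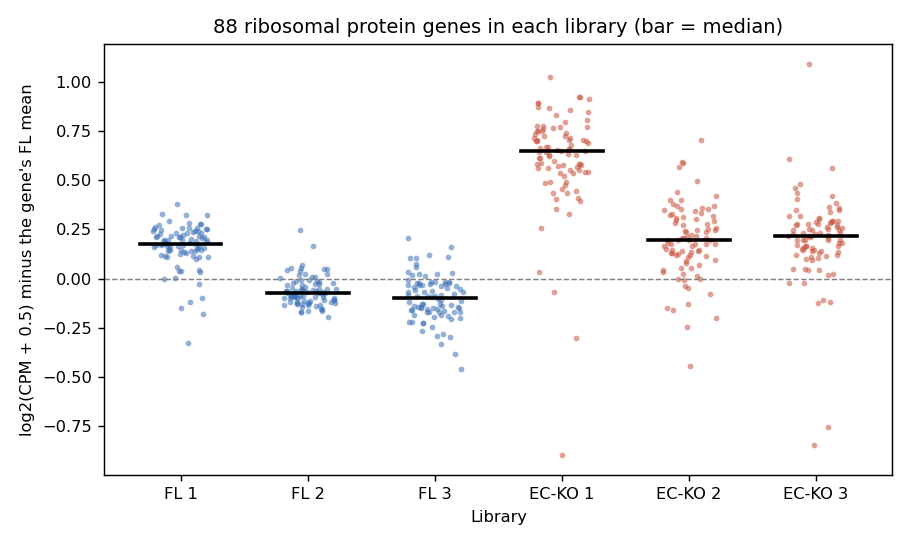
Each point is 1 of the 88 tested ribosomal protein genes, plotted as log2(CPM + 0.5) minus that gene's mean in FL (vertical axis) for each library (horizontal axis), with a bar at the median. The bars lie at 0.18, -0.07 and -0.10 in FL 1, 2 and 3 and at 0.65, 0.20 and 0.22 in EC-KO 1, 2 and 3.

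As a share of all gene counts, the 92 members took 2.66% (95% exact binomial interval 2.65 to 2.67), 2.15% (2.14 to 2.15) and 2.18% (2.17 to 2.18) in FL 1, 2 and 3. In the knockouts they took 3.90% (3.89 to 3.91), 2.58% (2.57 to 2.58) and 3.05% (3.04 to 3.06). The intervals cover counting error only, and on this scale FL 1 lay above EC-KO 2. With TMM scaling their summed level was 26874, 22321 and 22759 CPM in the floxed libraries. It reached 37101, 27067 and 28044 CPM in the knockouts, so the groups were just apart. Averaged over 3 libraries each, FL had 23985 ± 2512 CPM and EC-KO 30737 ± 5533 CPM (SD), a ratio of 1.28.

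The number of called members depended on which libraries were compared. It was 0 if FL 2, FL 3 or EC-KO 1 was left out, where the share of all genes called in either direction was 13.6%, 13.2% and 14.7%. It was 1 if FL 1 or EC-KO 3 was left out (22.5% and 17.8% of all genes). Without EC-KO 2, 13 members rose and 1 fell (15.7% and 19.5% of all genes, 35.1% together). Without FL 1 and EC-KO 2 together, an alternative chosen after seeing the data, 43 of 89 tested members rose and 2 fell (18.3% and 21.4% of all genes). That pair were the libraries of each group nearest to the other group in the median of the members, so leaving them out widened the difference by choice. They were also the libraries of each group nearest to the other group in the endothelial marker sum. Other marker lists differed: EC-KO 2 was the knockout library farthest from FL in the epithelial and fibroblast sums. In the macrophage and smooth muscle sums it was the nearest. The part of cell types in the count of called members was not tested. DESeq2 on all 6 libraries called 10 higher and 1 lower (16.8% and 16.6% of all genes). Scaling by library size alone called 7 higher and 0 lower (16.0% and 11.8% of all genes), and a fit with the replicate number as a block called 0 (10.2% higher and 10.5% lower of all genes).

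Rps12 encodes a small protein at the beak of the small subunit that is known from flies for its part in sensing ribosomal protein mutations. Its level was 248, 209 and 196 CPM in FL libraries 1, 2 and 3, with 365, 322 and 289.9 CPM in the knockouts. All EC-KO libraries lay above all FL libraries, with means of 217.7 ± 27.0 and 325.4 ± 37.5 CPM (SD, n = 3 each). The log2 fold change was 0.58 ± 0.17 SE (edgeR, adjusted p = 0.0352). The gene (ENSMUSG00000061983) lies on chromosome 10, 23661081 to 23663173, minus strand, in the table's coordinates, whose build is not resolved, and 13.7% of its exonic bases are shared there with other loci, among them the small nucleolar RNA gene Snora33. The edgeR call was lost when FL 2 (adjusted p = 0.132), FL 3 (0.167), EC-KO 1 (0.125) or EC-KO 3 (0.0553) was left out.

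Rpl37a encodes a zinc-binding protein of the large subunit. It was at 136, 110.2 and 104 CPM among FL libraries, compared with 213, 175 and 142 CPM in the knockouts, again without overlap. In edgeR's test the log2 fold change of 0.60 ± 0.19 SE had an adjusted p = 0.0492, just under the threshold. The gene (ENSMUSG00000046330) lies on chromosome 1, 72750449 to 72752972, plus strand, in the table's coordinates. Its call was lost on leaving out FL 1 (0.0559), FL 2 (0.161), FL 3 (0.197) or EC-KO 1 (0.174), and with TMM factors taken from the other genes alone (0.0554). A further 14 members had an adjusted p between 0.05 and 0.1, and 13 of these were higher, with log2 fold changes up to 0.65.

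Both subunits had the same median to 2 decimals, and their difference was not tested: the log2 fold change was 0.37 in 52 large-subunit members (1 called higher, 0 lower) and 0.37 in 36 small-subunit members (1 higher, 0 lower). The most abundant member per kilobase of exonic length in FL was Rplp0 in the large subunit, at 605 CPM per kilobase, and Rps3a1 in the small subunit, at 802 CPM per kilobase. The exonic length in the table joins the exons of every annotated isoform of a gene. Over the tested members the FL level ran from 0.306 to 802 CPM per kilobase, with a median of 106.

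The P stalk recruits the GTPases of translation and is built from Rplp0, Rplp1 and Rplp2 on a base that includes Rpl12. All 4 genes had positive log2 fold changes (0.32 to 0.53, median 0.48) and 0 passed the test. Rplp1 was at 235, 193 and 186 CPM in the floxed libraries, against 363, 288 and 237 CPM in the knockouts (0.53 ± 0.20 SE, adjusted p = 0.0763 in edgeR). Rplp2 was at 155, 119 and 117 CPM in FL libraries 1, 2 and 3, with 226, 175 and 155 CPM in the knockouts (0.51, adjusted p = 0.0820 in edgeR). Their EC-KO libraries lay above the FL libraries, by a narrow margin between FL 1 and EC-KO 3. Rplp0, which is often used as a reference gene, was at 1123, 921 and 968 CPM among FL libraries, compared with 1481, 1069 and 1212 CPM in the knockouts (0.32, adjusted p = 0.240 in edgeR), and its groups overlapped.

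Rpl5 and Rpl11 form a particle with the ribosomal RNA called 5S and, when unassembled, bind MDM2 and stabilise p53. Rpl5 was at 593, 491 and 528 CPM in the floxed libraries, against 753, 466 and 578 CPM in the knockouts, with EC-KO 2 the lowest of the 6 libraries. Its log2 fold change of 0.16 (adjusted p = 0.607 in edgeR) was among the smallest and was -0.04 without EC-KO 1. Rpl11 was at 263, 225 and 216 CPM in FL libraries 1, 2 and 3, with 365, 256 and 274 CPM in the knockouts (0.35, adjusted p = 0.195 in edgeR).

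Of the 9 proteins that line the peptide exit tunnel or its rim, all had positive values (0.13 to 0.48, median 0.26) and 0 passed. Rpl17, which reaches into the tunnel, was at 414, 360.0 and 359 CPM among FL libraries, compared with 641, 449 and 493 CPM in the knockouts (0.48, adjusted p = 0.0839 in edgeR). Rpl26 at the tunnel rim, which is also known to bind p53 mRNA, had a log2 fold change of 0.37 (adjusted p = 0.174 in edgeR). Rpl39, a very small protein of the tunnel wall, was at 63.4, 54.3 and 43.03 CPM in the floxed libraries, against 87.99, 47.7 and 54.8 CPM in the knockouts, and its value of 0.25 (adjusted p = 0.497 in edgeR) was -0.07 without EC-KO 1.

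In the small subunit, the 4 proteins of mRNA entry and decoding had values of 0.33 to 0.50 (median 0.42), with 0 called. Rps2, at the entry of the mRNA channel, was at 562, 468 and 529.8 CPM in FL libraries 1, 2 and 3, with 843, 675 and 657 CPM in the knockouts (0.48, adjusted p = 0.0733 in edgeR). Rps15, near the decoding site, was at 385, 294 and 283 CPM among FL libraries, compared with 534, 419.7 and 405 CPM in the knockouts (0.50, adjusted p = 0.0866 in edgeR). Neither gene's groups overlapped. The 5 proteins around the mRNA exit gave 0.31 to 0.51 (median 0.41), again with 0 called. Among them Rps3a1 was at 869, 714 and 767 CPM in the floxed libraries, against 1274, 1032 and 1005 CPM in the knockouts (0.49, adjusted p = 0.0705 in edgeR), and Rps14 had a value of 0.41 (adjusted p = 0.130 in edgeR).

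Rps6, the protein phosphorylated by S6 kinase downstream of mTORC1, was at 739.9, 642 and 669 CPM in FL libraries 1, 2 and 3, with 980.2, 766 and 810.2 CPM in the knockouts (0.32, adjusted p = 0.204 in edgeR). Rps27a, made as a fusion with ubiquitin, had a value of 0.36 (adjusted p = 0.161 in edgeR). Rpl10, which joins the large subunit late in its assembly, had 0.22 (adjusted p = 0.350 in edgeR). Its libraries were tight within FL, at 587, 569 and 557 CPM, and lay at 751, 620 and 621 CPM in EC-KO. Of 10 members whose loss of function is known to cause Diamond-Blackfan anaemia, all were above 0 (0.16 to 0.65, median 0.35) and 0 passed the test. Rps10 had the largest value of these, and Rpl35a, with a value of 0.40 (adjusted p = 0.149 in edgeR), was at 149, 120.3 and 109.6 CPM among FL libraries, compared with 203, 154 and 145 CPM in the knockouts.

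Exons that the table also gives to other genes on either strand occurred in members of low and of high counts. Rpl23a (62.3% of exonic bases) and Rpl35 (66.2%) were at FL means of 175 and 53.0 CPM, and Rpl3l and Rps27rt had no shared exonic bases at 0.502 and 2.98 CPM. On the same strand alone, the shared part was only 2.60% in Rpl23a and 0% in Rpl35. These 4 genes were chosen here after the values were seen. Rps10, an essential component of the small subunit, was at 3.30, 3.06 and 3.59 CPM in the floxed libraries, against 5.08, 5.71 and 4.82 CPM in the knockouts (0.65, adjusted p = 0.0571 in edgeR), and 28.7% of its exonic bases also belong to other genes, among them the read-through gene RPS10-NUDT3. Rpl24 was at 1.71 to 1.77 CPM in FL and 1.79 to 2.13 CPM in EC-KO, with 47.0% of its exonic bases shared with the locus Gm28037 on the same strand. Rpl13a was at 9.26 to 10.1 CPM in FL and 12.1 to 13.3 CPM in EC-KO (0.36, adjusted p = 0.146 in edgeR), with 35.4% shared with loci on the same strand. The deposited summary lists ambiguous alignments as unassigned, and whether reads from the shared exons were among them was not tested. In Rps10, 20.6% of the exonic bases were shared on the same strand.

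Processed pseudogenes are the other limit of these counts. In the GENCODE transcripts of the 92 members, a median of 24.2% of the 50-base words also occurred in a transcript of another gene (range 0 to 100%), and the deposited summary lists alignments to several places as unassigned. Those alignments made up 9.10% to 9.89% of the total in FL and 9.67% to 11.5% in EC-KO, and their part in the shift was not tested. In 15 tested members with under 10% of shared words all log2 fold changes were above 0, with a median of 0.40, and in 11 members with 50% or more the median was 0.35. The 300 pseudogenes with -ps symbols together took 0.0194%, 0.0161% and 0.0163% of counts in the floxed libraries and 0.0307%, 0.0185% and 0.0243% in the knockouts, with the same order of libraries within each group as for the members' share.

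Related genes of the standard members did not all share the shift. Rps4l is a retrogene copy of Rps4x, annotated as a transcribed processed pseudogene. It was at 19.3, 19.7 and 24.3 CPM in FL libraries 1, 2 and 3, with 11.03, 17.6 and 11.4 CPM in the knockouts, the only member with all EC-KO libraries below all FL libraries. Its log2 fold change was -0.66 ± 0.22 SE (adjusted p = 0.0568 in edgeR). DESeq2 (0.0292), limma-voom (0.0454) and the fit without EC-KO 2 (0.00389), its highest knockout library, called it lower. So did the fits without a filter and without FL 1 and EC-KO 2 together. Rps4l was not called with upper-quartile or library-size scaling, with the replicate block or with any other single library left out. Of all genes 16.6% were lower with DESeq2 and 19.5% without EC-KO 2. Rps4x, named here after its values were seen, was at 817, 695 and 767 CPM among FL libraries, compared with 1134, 856 and 825 CPM in the knockouts (0.30, adjusted p = 0.257 in edgeR). When counts were scaled to the summed count of the ribosomal protein genes, an alternative chosen after seeing the data, Rps4l was the 1 member called (-0.98, adjusted p = 0.0323 in edgeR), where 19.3% of all genes were lower and 6.34% higher.

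Rps27l is a paralogue of Rps27 and a known target of p53. It was at 11.8, 14.1 and 14.6 CPM in the floxed libraries, against 10.8, 13.4 and 7.76 CPM in the knockouts, and the groups overlapped (-0.34, adjusted p = 0.298 in edgeR). Rps27 was at 203, 169 and 146 CPM in FL libraries 1, 2 and 3, with 349, 198 and 204 CPM in the knockouts (0.54, adjusted p = 0.139 in edgeR), with EC-KO 1 far above the others. A ratio of counts within a library does not depend on the scaling between libraries. Rps27l counts were 5.80%, 8.37% and 9.96% of Rps27 counts in the floxed libraries and 3.10%, 6.77% and 3.81% in the knockouts, so the groups overlapped. Rps4l counts were 2.36%, 2.84% and 3.17% of Rps4x counts in the floxed libraries and 0.973%, 2.06% and 1.39% in the knockouts, without overlap.

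Rpl22l1, a paralogue of the RNA-binding protein Rpl22, had the larger value of its pair. It was at 25.5, 19.7 and 23.1 CPM among FL libraries, compared with 34.9, 28.5 and 23.4 CPM in the knockouts (0.35, adjusted p = 0.215 in edgeR), while Rpl22 was at 153, 127 and 134 CPM in the floxed libraries, against 173, 152 and 127 CPM in the knockouts (0.13, adjusted p = 0.616 in edgeR). The ratio was 16.7%, 15.5% and 17.3% in the floxed libraries and 20.2%, 18.8% and 18.5% in the knockouts, without overlap. Over 6 such pairs, two-sided exact permutation tests of the log2 ratio gave p = 0.1 for Rps4l over Rps4x and for Rpl22l1 over Rpl22, the smallest p that 3 against 3 libraries allow (0.3 after Benjamini-Hochberg adjustment over the 6 pairs), and p = 0.2 for Rps27l over Rps27.

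**Figure D3:**
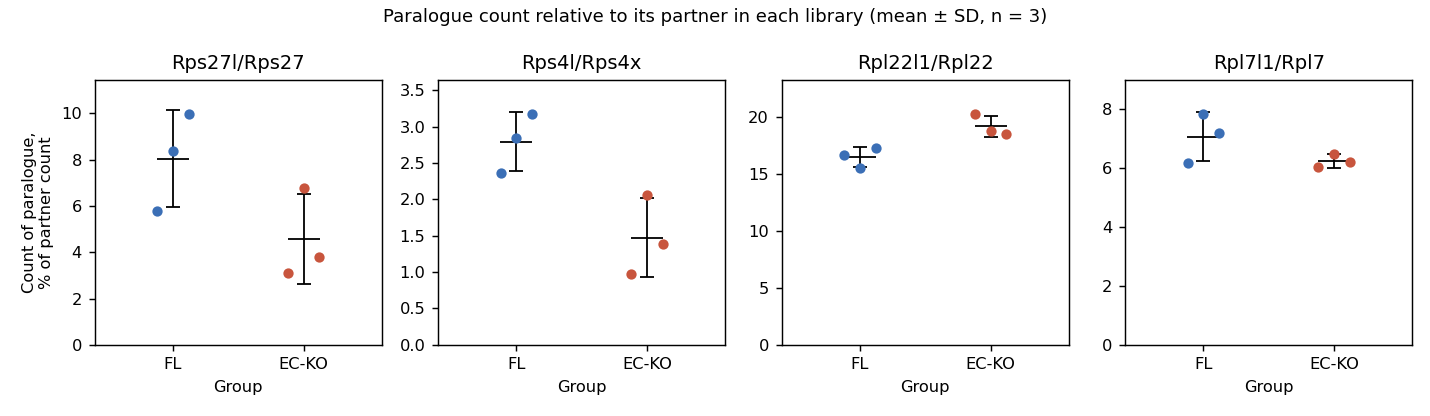
Count of a related gene as a percentage of the count of its partner (vertical axis, from 0), by group, with 1 point per library and the mean ± SD of 3. Rps4l over Rps4x is lower in all EC-KO libraries (0.973% to 2.06%, against 2.36% to 3.17% in FL) and Rpl22l1 over Rpl22 is higher in all of them (18.5% to 20.2%, against 15.5% to 17.3%).

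The remaining pairs gave overlapping ratios. Rpl7l1, related to Rpl7, was at 39.5, 45.3 and 47.2 CPM in FL libraries 1, 2 and 3, with 56.3, 47.7 and 43.3 CPM in the knockouts (0.16, adjusted p = 0.504 in edgeR), and Rpl7 had a value of 0.34 (adjusted p = 0.193 in edgeR). Rpl36al was at 0.834 to 1.37 CPM in FL and 1.05 to 1.35 CPM in EC-KO (-0.04, adjusted p = 0.945 in edgeR), a value whose sign changed with the scaling and with the libraries compared. Rpl36al had only 22 to 45 counts per library, and 24.5% of its exonic bases were shared with the locus Gm49383 on the same strand. Its partner Rpl36a was at 90.5, 72.6 and 63.9 CPM among FL libraries, compared with 128, 89.7 and 82.7 CPM in the knockouts (0.41, adjusted p = 0.184 in edgeR). Rpl3l, which replaces Rpl3 in heart and skeletal muscle, was at 0.531, 0.458 and 0.518 CPM in the floxed libraries, against 0.895, 0.470 and 1.64 CPM in the knockouts (0.99 ± 0.51 SE, adjusted p = 0.180 in edgeR), and Rpl3 had 0.25 (adjusted p = 0.377 in edgeR). The 4 members that failed the filter on low counts were Rpl39l (0 to 14 counts per library), Rpl32l (2 to 19 counts), and Rpl10l and Rps12l1 at 0 counts in every library, where 3 counts, the limit that a count of 0 allows, correspond to 0.0874 to 0.113 CPM. The list of related and like-named genes, which also holds the separate proteins Rpl7a, Rpl10a and Rpl13a, had 10 tested members of which 0 passed the test, with a median of 0.25. Of these Rpl10a was at 244, 200.4 and 202 CPM in FL libraries 1, 2 and 3, with 351, 246 and 266 CPM in the knockouts (0.42, adjusted p = 0.131 in edgeR).

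Among assembly factors, RNA polymerase I genes and small nucleolar RNA host genes every called gene was higher in EC-KO. Of 62 ribosome assembly factors 23 rose and 0 fell, with a median of 0.50, where 13.5% of all tested genes rose and 13.5% fell. Tsr2, a chaperone that carries Rps26 to the assembling subunit, was at 13.6, 12.5 and 13.4 CPM among FL libraries, compared with 28.96, 23.6 and 24.9 CPM in the knockouts (0.97 ± 0.17 SE, adjusted p = 0.00396 in edgeR). Gnl3, the nucleolar GTPase nucleostemin, was at 78.1, 56.7 and 52.7 CPM in the floxed libraries, against 148, 108 and 133 CPM in the knockouts (1.05 ± 0.20 SE, adjusted p = 0.00671 in edgeR). Both genes' groups were well apart. Among the others that rose were the nucleolar proteins Ncl (0.75), Nop56 (1.00) and Fbl (0.66). Leaving out FL 1 gave 16 that rose, FL 2 gave 6, FL 3 gave 3, EC-KO 1 gave 7, EC-KO 2 gave 38 and EC-KO 3 gave 14. The share of all genes called in either direction in these fits ran from 13.2% (FL 3 left out) to 35.1% (EC-KO 2 left out). Without EC-KO 2 the share of all genes that rose was 15.7%. The difference between the assembly factors and the ribosomal protein genes was not tested.

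RNA polymerase I transcribes the large ribosomal RNA precursor. Of 14 genes of this machinery 5 rose and 0 fell (median 0.39), beside 13.5% higher and 13.5% lower of all tested genes. Polr1c, a subunit shared with RNA polymerase III, was at 25.2, 19.8 and 23.3 CPM in FL libraries 1, 2 and 3, with 52.5, 41.7 and 43.4 CPM in the knockouts (1.01, adjusted p = 0.00393 in edgeR), and Taf1d, of the promoter selectivity factor, was at 79.3, 66.1 and 54.3 CPM among FL libraries, compared with 137, 93.9 and 122 CPM in the knockouts (0.82, adjusted p = 0.0177 in edgeR). With 1 library left out the count was 1 (FL 2, FL 3 or EC-KO 1), 2 (FL 1), 3 (EC-KO 3) or 6 (EC-KO 2), and Taf1d lost its call when FL 2 (0.0693), FL 3 (0.0867) or EC-KO 1 (0.0718) was left out.

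Host genes of small nucleolar RNAs, whose introns release the guides of ribosomal RNA modification, rose in 5 of 11 cases and fell in 0 (median 0.66). Over all tested genes the shares were 13.5% higher and 13.5% lower. Snhg17 was at 14.8, 14.5 and 12.03 CPM in the floxed libraries, against 36.8, 22.4 and 33.2 CPM in the knockouts (1.16, adjusted p = 0.00592 in edgeR). Snhg5 was at 20.5, 19.1 and 20.8 CPM in FL libraries 1, 2 and 3, with 36.5, 32.8 and 33.8 CPM in the knockouts (0.77, adjusted p = 0.00693 in edgeR). Without FL 3 the number that rose was 3, where 13.2% of all genes were called in either direction.

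Of 17 other genes with TOP mRNAs 1 rose and 0 fell, and all had positive values (median 0.25). Of all tested genes 13.5% rose and 13.5% fell, so the share of this list called was below the background. The called gene was the RNA-binding protein Hnrnpa1, at 597, 476 and 475 CPM among FL libraries, compared with 965, 636 and 836 CPM in the knockouts (0.66, adjusted p = 0.0434 in edgeR), a call that held in only 1 of the 6 fits with a library left out, the one without EC-KO 2 (0.0543 to 0.171 in the others). Fau, which encodes a small-subunit ribosomal protein fused to a ubiquitin-like protein, had a value of 0.25 (adjusted p = 0.301 in edgeR), and the elongation factor Eef1a1 had 0.13 (adjusted p = 0.659 in edgeR). Of 28 other initiation factors 3 rose and 1 fell (median 0.20), also below the background in each direction. Eif5 was at 558, 544 and 476 CPM in the floxed libraries, against 958, 846 and 959 CPM in the knockouts (0.81, adjusted p = 0.00859 in edgeR), and Eif1 was at 809, 709.9 and 859.9 CPM in FL libraries 1, 2 and 3, with 1329, 1440 and 999 CPM in the knockouts (0.66, adjusted p = 0.0352 in edgeR). Eif2b3, a subunit of the exchange factor for eIF2, fell from 9.36, 11.4 and 9.56 CPM to 6.24, 6.33 and 5.04 CPM (-0.79, adjusted p = 0.0213 in edgeR). Eif5 was not called without FL 3 (0.0600), Eif1 had an adjusted p of 0.0881 to 0.144 when FL 1, FL 2, FL 3 or EC-KO 1 was left out, and Eif2b3 one of 0.0559 to 0.0903 when FL 2, FL 3, EC-KO 1 or EC-KO 3 was.

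Among 22 regulators of this program, 3 rose and 3 fell (median 0.04). Of all tested genes 13.5% rose and 13.5% fell, so the list as a whole was near the background. Myc was at 141, 101 and 93.9 CPM in the floxed libraries, against 242, 224 and 212 CPM in the knockouts (1.02 ± 0.19 SE, adjusted p = 0.00603 in edgeR). Mxd1 and Mxi1, which compete with MYC for its partner MAX, fell. Mxi1 went from 85.6, 98.7 and 97.7 CPM to 38.5, 40.6 and 38.3 CPM (-1.26 ± 0.14 SE, adjusted p = 0.000835 in edgeR). Mxd1 went from 548, 934 and 1009 CPM to 316, 249 and 317 CPM (-1.50, adjusted p = 0.00373 in edgeR), and it is strongly expressed in myeloid cells, whose markers fell in the same libraries, and their part in its value was not tested. Tsc1, an inhibitor of mTORC1, was at 39.8, 40.8 and 35.5 CPM in the floxed libraries, against 99.1, 53.5 and 113 CPM in the knockouts (1.20, adjusted p = 0.0107 in edgeR), and it was not called without FL 3 (0.0532). In each of these 4 genes the groups did not overlap. Max (0.46) rose and Eif4ebp2 (-0.68) fell as well.

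**Figure D4:**
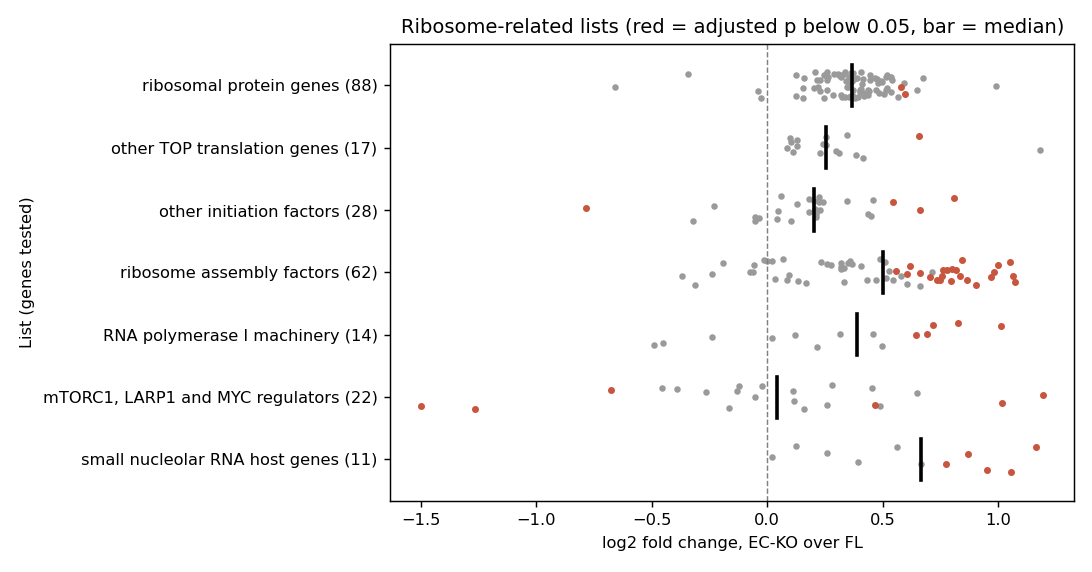
Log2 fold change of EC-KO over FL (horizontal axis) for each tested gene of the ribosomal protein set and of 6 related lists (rows, with the number of genes), red where the adjusted p was under 0.05, with a bar at the median. The ribosomal proteins cluster at a median of 0.37 with 2 red points, and the assembly factors spread up to 1.07 with 23 red points.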

How the data were processed

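RNA-seq of 6 libraries (3 FL, 3 EC-KO) was analysed from the authors' deposited table of raw counts per Ensembl gene, laid out as featureCounts writes it, per the file headers. STAR 2.7.10b, featureCounts 2.0.3 and mm10 are named, without roles, in the submitters' processing notes. The sources used here give neither strand setting nor annotation release. The table's exonic length column, also deposited by the authors, gave levels per kilobase. A deposited summary gave alignment classes. The table held 2 further per-sample columns that match no labelled sample and were not used. Symbols came from GENCODE M21 (51948 of 56941 identifiers matched). The members and lists were chosen with earlier results of these data known.

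Counts were tested with edgeR 4.0.16 in R 4.3.3 (filterByExpr, TMM, robust glmQLFit and glmQLFTest, no covariates, two-sided, Benjamini-Hochberg adjustment over all 18562 tested genes, threshold 0.05), and the script was tested on simulated data. CPM are TMM-scaled. Each standard error is the absolute log2 fold change over the square root of F, so it is no measure separate from p. Named genes were the called members, the most abundant member of each subunit per kilobase, 2 examples from every role list (smallest p), related pairs, up to 2 called genes per direction of each related list, and Fundc1. Others were named after their values were seen: Rps4x, Rpl13a, Rpl23a, Rpl35, Rps27rt, Fau, Eef1a1, Ncl, Nop56, Fbl, Max and Eif4ebp2. Alternatives were other scalings and filters, DESeq2 1.42.0, limma-voom 3.58.1, a replicate block and leaving out libraries. Figures used Python 3.11.15 and matplotlib 3.10.9.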

Additional observations from a re-analysis of the deposited data

How the results depend on the processing

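The median of the ribosomal protein genes stayed above 0 under every alternative tried, between 0.20 (without EC-KO 1) and 0.52 (with FL 1 and EC-KO 2 both left out, an alternative added later), apart from the scaling to these genes themselves, which sets it near 0 by construction (0.0145). Upper-quartile and library-size scaling moved the median of all genes to 0.11 and 0.12. The number of called members, 2 as reported, was 8 with upper-quartile scaling, 7 with library-size scaling, 1 with TMM factors from the other genes, 4 with a filter of 1 CPM in 3 libraries, 11 with DESeq2, 45 without FL 1 and EC-KO 2, 1 when scaled to the members, and 0 to 14 when 1 library was left out. With the replicate number as a block it was 0 (Rps12 0.0609, Rpl37a 0.0573), and the cause was not tested. The labels do not say that a number marks a shared animal or day, and deviations of same-numbered libraries correlated at 0.05, 0.07 and -0.18 across genes, so the numbers were not taken as pairs. Over all genes the block called 3848 of 18562, against 5029, and leaving out 1 library gave 2547 to 6740 (7554 without FL 1 and EC-KO 2). Of the same 18562 genes upper-quartile scaling called 5082, library-size scaling 5163 and TMM factors from the other genes 5021. DESeq2 called 6191 of them and the scaling to the members 4766. With the filter of 1 CPM in 3 libraries 4841 of 15162 genes were called, beside 4 of 87 members. The related lists together had 44 calls of 154 genes, 31 with the block, 10 to 69 when 1 library was left out, 73 without FL 1 and EC-KO 2 and 13 when scaled to the members. Fundc1 kept its call throughout.

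Signs changed for Rpl36al with upper-quartile (0.0377) and library-size scaling (0.0448). Leaving out 1 library at a time gave -0.268 to 0.065 for Rpl36al, -0.067 to 0.384 for Rpl39 and -0.0447 to 0.277 for Rpl5, with the negative value of the last pair coming from the fit without EC-KO 1. Scaling to the members lowers all genes by a common amount, so members below about their middle turn negative by construction. These were Rpl10 (-0.14), Rpl11 (-0.0118), Rpl22 (-0.22), Rpl22l1 (-0.0089), Rpl24 (-0.12), Rpl3 (-0.12), Rpl39 (-0.13), Rpl5 (-0.21), Rpl7 (-0.0255), Rpl7l1 (-0.21), Rplp0 (-0.0348), Rps4x (-0.0562) and Rps6 (-0.0359).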
